A study of Mus musculus with 6 samples.

Results

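The genes described here are 10 genes of lipid storage, lipid efflux and foam cells: Plin2, Dgat2, Lpl, Fabp5, Fabp4, Abca1, Abcg1, Apoe, Lgals3 and Spp1. They were taken by gene name from the deposited table of 56884 genes, and all 10 had a single row there. RNA sequencing gave their transcript levels in mature neutrophils, gated as CD101+ Ly6G+, that were sorted out of mouse bone marrow and cultured outside the animal, with DKK1 in 3 libraries and without DKK1, here called control, in 3. DKK1 (Dickkopf-1) is a secreted antagonist of Wnt signalling. No source used here gives the dose, the length of culture, the mouse strain or the age of the animals.

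Cells keep surplus fatty acids and sterols as triglyceride and sterol esters in lipid droplets, whose surface is coated by perilipins. Macrophages that take up more lipoprotein lipid than they export fill with such droplets and are called foam cells. Export runs through the transporters ABCA1 and ABCG1 onto apolipoproteins such as APOE, and the sterol-sensing LXR receptors are known to induce all of these in macrophages.

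Recovered totals ranged from 5188116 to 9851961 reads per library, and DKK1 library 2 was the shallowest. Summed normalized counts were 6738824 ± 336773 in DKK1 and 9729307 ± 39771 in control (SD, n = 3 each). The labelled cell type was checked against 12 neutrophil markers: their summed normalized count was 3415 to 3858 in DKK1 libraries and 691378 to 716974 in control libraries, and 11 of the 12 fell. Both sorting markers were among them: Ly6g stood at 5.96 ± 1.30 in DKK1 and 1337.5 ± 72.7 in control, and Cd101 at 3.53 ± 2.31 in DKK1 and 5098 ± 178 in control. Camp, a granule gene, was the one that did not pass, at 517 ± 26.6 in DKK1 and 534 ± 48.7 in control (limma adjusted p = 0.688). The DKK1 libraries thus go against the labelled cell type on most of its markers. Whether they hold the same cells as control is not known from these data, so each fold below compares these libraries, and the part of the marker loss in it was not tested. DKK1 library 2 also stood apart on globin transcripts, where Hbb-bs reached 582, while DKK1 library 1 had 297 and DKK1 library 3 had 117. The labels do not say whether the 3 libraries of each group stand for separate mice or cultures, and the p-values below therefore cover the spread between libraries alone, possibly technical.

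The genes split by direction. Spp1, Fabp5 and Lpl rose 7.48- to 9.30-fold with DKK1. Plin2 and Lgals3 rose less than 2-fold, as did Abca1, whose groups overlapped. With equal total reads all of these passed 2-fold, with log2 changes of 1.39 for Plin2, 1.28 for Lgals3 and 1.08 for Abca1. Abcg1, Dgat2 and Apoe were 7.96- to 15.8-fold lower. Fabp4 was near the lower limit of detection in both groups. In all, 6 of the 10 were higher and 3 lower by limma on log2(normalized count + 1) with Benjamini-Hochberg adjustment over the 16265 genes tested, and 1 did not pass the threshold of 0.05. Counts were the same by edgeR and DESeq2 on recovered reads, which called 70.1% and 65.7% of all genes tested. Of all genes tested, 35.1% were higher and 36.1% lower, 71.2% in either direction, so a call by itself sets none of these genes apart. The groups did not overlap for 8 of the 10, 5 of them higher and 3 lower, against 73.9% of all genes tested, 36.5% higher and 37.4% lower. Means were at least 2-fold higher for 3 genes and at least 2-fold lower for 3, against 32.4% and 34.2% of all genes tested. With every library scaled to equal total reads, 6 were again higher and 3 lower, against 43.6% and 29.2% of all genes tested. The median log2 change was 0.65 over the 10 genes and -0.03 over all genes tested. In bulk RNA, fewer cells of a type and less RNA per cell cannot be told apart.

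**Figure D1:**
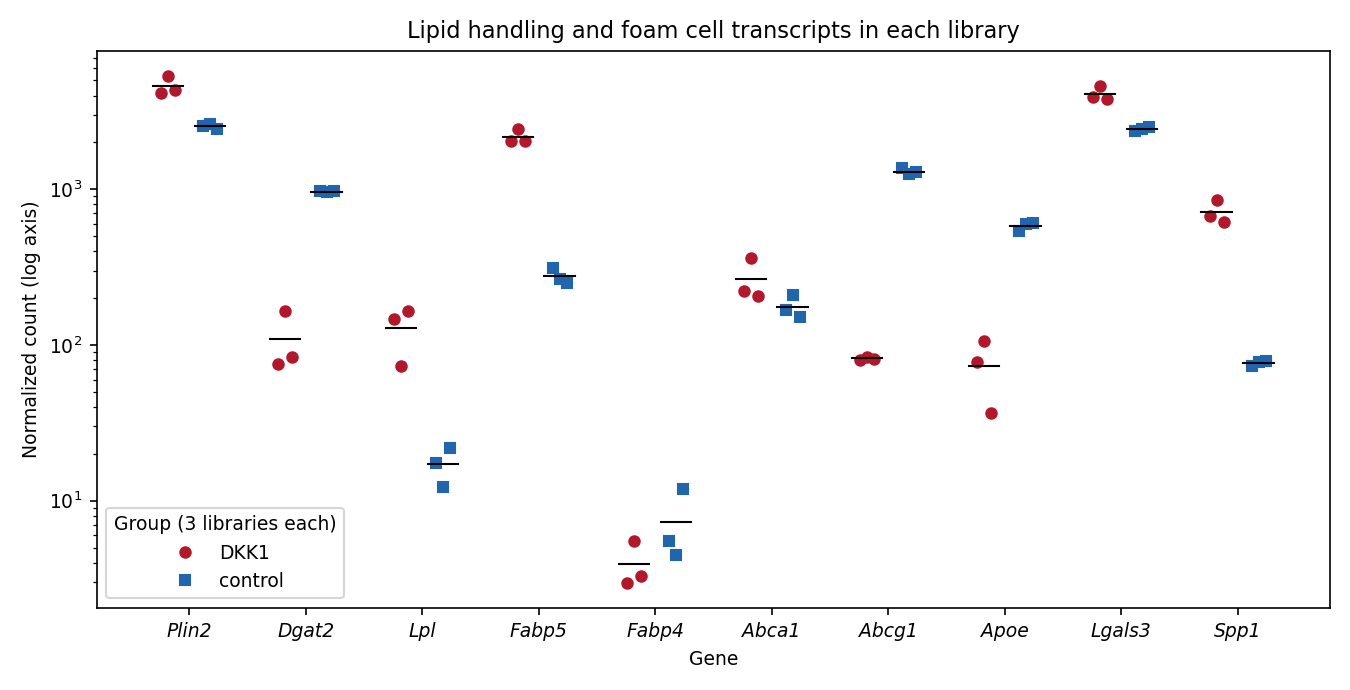
Normalized count of each of the 10 genes (log axis) in each of the 3 DKK1 libraries (circles) and 3 control libraries (squares), with bars at the group means. Fabp5, Spp1 and Lpl are higher and Abcg1, Dgat2 and Apoe lower in every DKK1 library, whereas Abca1 and Fabp4 overlap between the groups.

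Of the storage genes, Plin2 rose and Dgat2 fell. Plin2 encodes perilipin 2, the coat protein found on droplets of most cell types (ENSMUSG00000028494.13; chromosome 4, 86648386 to 86670060, minus strand; all positions given are from GENCODE M21 on GRCm38, matched without the identifier's version). Its normalized count was 4186, 5338 and 4335 in DKK1 libraries 1 to 3 and 2549.9, 2608 and 2456 in control libraries 1 to 3. Every DKK1 library lay above every control library, and the mean rose 1.82-fold (log2 change 0.86, SE 0.09, limma adjusted p = 2.19e-05). Dgat2 encodes diacylglycerol acyltransferase 2, which makes triglyceride at the droplet (ENSMUSG00000030747.6; chromosome 7, 99153658 to 99182719, minus strand). It stood at 76.0, 166 and 83.3 in DKK1 libraries and at 969.7, 954 and 976 in control libraries. The groups lay far apart, with DKK1 library 2 above the other two DKK1 libraries, and the mean was 8.91-fold lower with DKK1 (log2 change -3.23, SE 0.25, limma adjusted p = 2.76e-06).

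Other droplet coat and lipolysis genes were mostly lower: of 14 tested out of 18 listed, 3 rose, 9 fell and 2 did not pass the threshold. The median log2 change was -1.27, and 35.1% of all genes tested rose and 36.1% fell. Those that fell held both coats and lipases, the perilipin genes Plin3, Plin4 and Plin5 among them. Plin3 stood at 249 ± 30.0 in DKK1 and 463 ± 33.0 in control, so that Plin2 was the one perilipin gene tested that rose. G0s2, an inhibitor of the lipase ATGL, fell to 8.26 ± 3.59 in DKK1, against 792 ± 36.6 in control (SD, n = 3 each). Lipe, hormone-sensitive lipase, fell to 41.6 ± 6.04 in DKK1, against 698 ± 25.5 in control. Mgll, monoglyceride lipase, stood at 2.85 ± 2.48 in DKK1 and 285 ± 25.7 in control, and Pnpla2, which encodes ATGL itself, at 933 ± 109 in DKK1 and 2602.7 ± 128 in control. Hsd17b11, a droplet-associated dehydrogenase, was 24.4-fold lower. Hilpda, another droplet-bound inhibitor of ATGL, went the other way, at 1024 ± 216 in DKK1 and 17.0 ± 8.78 in control, 60.2-fold higher. Cidec and Cidea, droplet fusion genes of fat cells, were too low to test.

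Enzymes of glycerolipid and sterol ester synthesis were divided, with 5 of 14 tested higher, 4 lower and 5 short of the threshold, with a median log2 change of -0.20. With equal total reads 7 were higher and 3 lower, and the median turned to 0.33. Dgat1, the second triglyceride-forming enzyme, fell with Dgat2, to 438 ± 83.1 in DKK1 against 2179 ± 90.7 in control. Soat1, which esterifies cholesterol for storage, rose 2.32-fold, with 6286 ± 697 in DKK1 and 2714 ± 35.7 in control. Gpat4 and Agpat4, acyltransferases earlier in the pathway, rose 5.73-fold and 9.21-fold.

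Lpl encodes lipoprotein lipase, which frees fatty acids from circulating triglyceride and is secreted by fat cells, muscle and macrophages (ENSMUSG00000015568.17; chromosome 8, 68880491 to 68907448, plus strand). Its normalized count was 147, 72.8 and 166 in DKK1 libraries, against 17.6, 12.3 and 21.7 in control libraries. The lowest DKK1 library, library 2, was still above every control library. The mean rose 7.48-fold (log2 change 2.78, SE 0.35, limma adjusted p = 7.57e-05). Leaving out DKK1 library 2 gave a log2 change of 3.14. Control values rest on 49 reads over 3 libraries and DKK1 values on 453.

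Genes for taking up lipoproteins and modified lipid mostly rose: 10 of 12 were higher and 2 lower (median log2 change 4.40). Among all genes tested 35.1% were higher, but the list was chosen with earlier results of these data known. Marco, a scavenger receptor, had 0 reads in the control libraries and a mean of 556 ± 202 in DKK1, at least 521-fold higher against a floor of 3 reads over the control group. Olr1, a receptor for oxidized lipoprotein, rose 35.2-fold to 718 ± 69.1 in DKK1, against 20.4 ± 5.11 in control. Lrp8, a receptor of apolipoprotein E, rose 30.7-fold to 4807 ± 108 in DKK1, against 156 ± 2.46 in control. Cd36 and Msr1, scavenger receptors of foam cells, stood at 109.7 ± 12.6 and 204 ± 25.3 in DKK1, against 4.90 ± 3.29 and 4.22 ± 0.801 in control. The members that fell were Stab1, an endothelial and macrophage scavenger receptor, and Cd5l, a macrophage-secreted protein.

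Partners of the lipase were detected in part. Gpihbp1, its anchor on capillary cells, had 0 reads in all 6 libraries, while Apoc2, its activator, had 83 reads in DKK1 and 109 in control (limma adjusted p = 0.103). Of the 15 genes listed as PPAR genes and lipase cofactors 5 could be tested, of which 2 rose and 3 did not pass. Among all genes tested, 35.1% rose and 36.1% fell. Lmf2, a lipase maturation gene, rose 3.04-fold and Ppard, a fatty acid receptor, rose 1.82-fold. Lmf1, the main maturation factor, stood at 5.66 ± 4.40 in DKK1 and 1.40 ± 1.22 in control (limma adjusted p = 0.0831). Sel1l, an endoplasmic reticulum protein needed for the lipase to be secreted, stood at 649.8 ± 60.3 in DKK1 and 734 ± 51.4 in control (limma adjusted p = 0.115). By edgeR on recovered reads Sel1l was lower (log2 change -0.24, edgeR adjusted p = 0.0321). Its direction turned with the scaling of the libraries, with a log2 change of 0.35 under equal total reads. Pparg, the PPAR of fat cells and foam cells, had 4 reads in DKK1 and 3 in control.

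The fatty acid binding proteins Fabp5 and Fabp4 are small cytosolic carriers encoded close together on chromosome 3, and both are used by macrophages. Fabp5, the epidermal form (ENSMUSG00000027533.11; 10012548 to 10016607, plus strand), stood at 2053, 2449 and 2036 in DKK1 libraries and at 313, 265 and 249 in control libraries. The groups were well separated and the mean rose 7.91-fold (log2 change 2.98, SE 0.11, limma adjusted p = 1.45e-08). Fabp4, the form of fat cells and foam cells (ENSMUSG00000062515.4; 10204088 to 10208576, minus strand), stood at 2.98, 5.49 and 3.27 in DKK1 libraries, from 12 reads in all, and at 5.49, 4.47 and 11.8 in control libraries, from 21 reads. The groups overlapped and Fabp4 did not pass (log2 change -0.68, SE 0.50, limma adjusted p = 0.248). With so few reads, this does not show that Fabp4 was unchanged.

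The coding sequences of these neighbours show how far their reads can be told apart. Over 399 aligned bases they were 60.9% identical, and the longest run they shared was 12 bases. Their most alike stretch of 60 bases is printed from the GENCODE M21 transcripts, with the 16 bases that differ in capitals. It covers coding bases 61 to 120 of Fabp5 and 55 to 114 of Fabp4.
Fabp5: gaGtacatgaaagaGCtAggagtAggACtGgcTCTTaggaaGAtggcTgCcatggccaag
Fabp4: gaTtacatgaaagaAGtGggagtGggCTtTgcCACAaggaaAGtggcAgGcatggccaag
Fabp5 has 5 annotated near-identical copies, at least 90% identical over at least 150 bases, and 1 of them was above 0, with at most 1.49 normalized counts in any library. Reads of such copies could still be divided differently by other counting rules, so the level of Fabp5 is uncertain to that extent. Plin2 had 1 such copy, at 0, and the other 8 genes had none.

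Other genes of fatty acid binding, activation and oxidation were split, with 7 of 15 tested higher, 6 lower and 2 short of the threshold. The median log2 change was 0.22, and 35.1% of all genes tested were higher and 36.1% lower. The acyl-CoA synthetase genes were divided. Acsl5 rose 3.68-fold to 1879.8 ± 64.0 in DKK1, against 511 ± 10.2 in control, and Acsl4 rose 1.92-fold. Acsl1 was 2.19-fold lower, at 1060 ± 99.4 in DKK1 and 2319 ± 55.5 in control, and Acsl3 did not pass. The carriers of mitochondrial oxidation fell: Cpt1a, the entry enzyme, to 130.0 ± 17.9 in DKK1 against 1777 ± 41.4 in control, and Slc25a20, the carnitine carrier, to 150.4 ± 5.29 in DKK1 against 536 ± 51.1 in control. The oxidation enzymes themselves were split. Acadl rose 2.23-fold and Acadvl 1.40-fold, and Hadha was narrowly higher (limma adjusted p = 0.0468). Acadm was 6.51-fold lower and Hadhb did not pass. Slc27a4, a fatty acid transport protein, was 16.0-fold lower with DKK1.

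The 3 efflux genes did not move together. Abca1 encodes the transporter that loads cholesterol onto lipid-poor apolipoprotein (ENSMUSG00000015243.5; chromosome 4, 53030787 to 53159895, minus strand). Its normalized count was 221, 363 and 207 in DKK1 libraries, against 168, 209 and 151 in control libraries. The highest control library lay above the lowest DKK1 library, and DKK1 library 2 was the highest of all. Abca1 passed narrowly as 1.50-fold higher (log2 change 0.55, SE 0.22, limma adjusted p = 0.0472), but the call was lost in 7 of 17 alternatives, over which the adjusted p ran from 0.000984 to 0.164. Leaving out DKK1 library 2 gave a log2 change of 0.30 (limma adjusted p = 0.106), and the call was also lost without DKK1 library 1, control library 1 or control library 3 (limma adjusted p = 0.0515, 0.124 and 0.164 in that order).

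Abcg1, the transporter that passes cholesterol to mature lipoprotein particles (ENSMUSG00000024030.8; chromosome 17, 31057675 to 31117988, plus strand), had the deepest fall of the 10 genes. It stood at 80.5, 83.8 and 81.7 in DKK1 libraries and at 1362, 1248 and 1287 in control libraries. The DKK1 libraries agree within 4 normalized counts, and the mean was 15.8-fold lower with DKK1 (log2 change -3.97, SE 0.09, limma adjusted p = 6.05e-10). Apoe, apolipoprotein E, the acceptor that macrophages secrete (ENSMUSG00000002985.17; chromosome 7, 19696109 to 19699188, minus strand), stood at 77.5, 106 and 36.7 in DKK1 libraries and at 544, 599 and 609.8 in control libraries. Its DKK1 libraries were spread nearly 3-fold but all lay below control, and the mean was 7.96-fold lower with DKK1 (log2 change -3.10, SE 0.32, limma adjusted p = 1.97e-05).

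**Figure D2:**
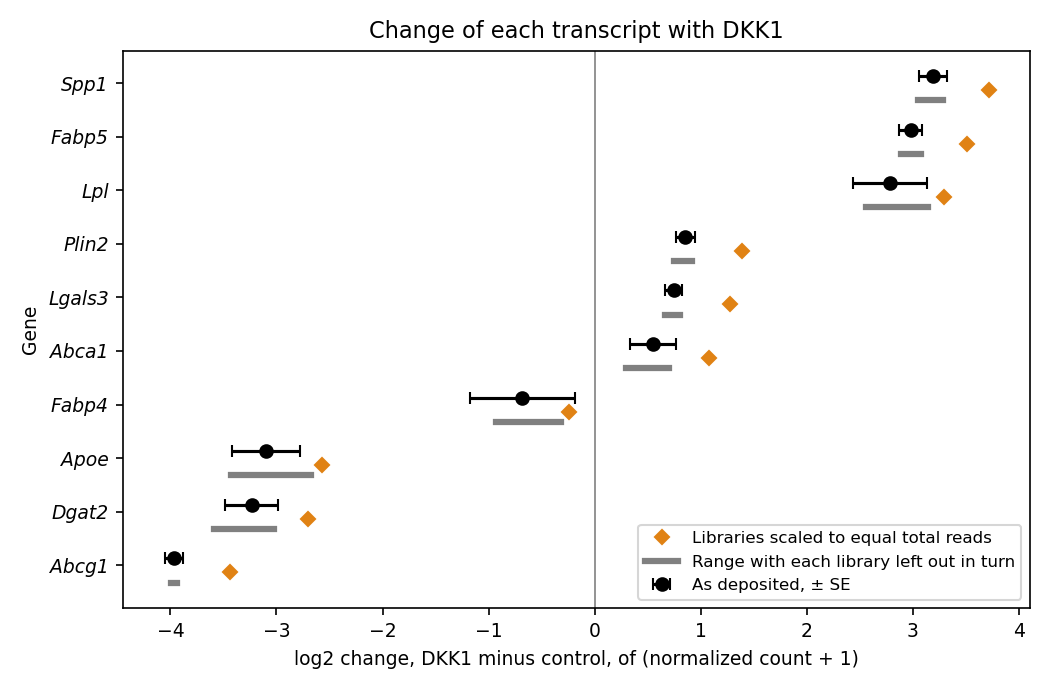
Log2 change of each of the 10 genes, DKK1 minus control, on the log2(normalized count + 1) scale with its standard error (black), with libraries scaled to equal total reads (diamonds), and as a range when each library is left out in turn (grey). Directions hold under all 3 readings for the 10 genes, and Abca1 and Fabp4 lie nearest to 0.

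The wider list of cholesterol export and LXR genes gave 7 rises and 7 falls among 17 tested, and 3 did not pass (median log2 change -0.29, which turned to 0.24 with equal total reads). Beside this, 35.1% of all genes tested rose and 36.1% fell. Both directions held receptor genes, with Nr1h3 higher and Rxrb lower. Lipa, the lysosomal acid lipase that frees sterol from lipoprotein, rose 12.0-fold to 12021 ± 1982 in DKK1, against 1004 ± 64.9 in control. Npc1, the lysosomal cholesterol exporter, rose 7.61-fold, and Nceh1, a neutral cholesterol ester hydrolase of macrophages, rose 9.58-fold. Nr1h3, which encodes LXR alpha, stood at 564 ± 15.3 in DKK1 and 2.54 ± 1.35 in control (limma adjusted p = 4.67e-08). Falls included the LXR target Mylip, which marks lipoprotein receptors for degradation, and Abca7, a transporter related to Abca1, at 183 ± 26.9 in DKK1 and 3114 ± 44.1 in control.

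The promoters of an efflux gene that was somewhat higher, of one that fell and of Spp1, which rose, are shown for the sequence beside those changes. RefSeq windows on GRCm38.p6, from 250 bases before to 50 after the start of transcription, matched 5 of the 10 genes (Plin2, Apoe, Abca1, Lgals3 and Spp1). Capitals mark matches, on either strand, to any of 9 motifs that were searched: direct repeats bound by LXR, in 2 forms, and by PPAR, the E-box, the antioxidant element core, the AP-1 site, the ETS core bound by PU.1, the TATA box and the GC box. One LXR form was included because the Abca1 promoter is known to carry it.
Abca1, chr4:53159846-53160145, minus strand: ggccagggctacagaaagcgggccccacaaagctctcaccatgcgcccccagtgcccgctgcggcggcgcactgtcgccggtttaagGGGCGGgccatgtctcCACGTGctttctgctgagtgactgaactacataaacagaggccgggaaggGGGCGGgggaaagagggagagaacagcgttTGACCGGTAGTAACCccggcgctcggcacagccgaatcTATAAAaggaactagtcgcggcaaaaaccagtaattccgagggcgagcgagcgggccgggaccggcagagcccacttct
Apoe, chr7:19699139-19699438, minus strand: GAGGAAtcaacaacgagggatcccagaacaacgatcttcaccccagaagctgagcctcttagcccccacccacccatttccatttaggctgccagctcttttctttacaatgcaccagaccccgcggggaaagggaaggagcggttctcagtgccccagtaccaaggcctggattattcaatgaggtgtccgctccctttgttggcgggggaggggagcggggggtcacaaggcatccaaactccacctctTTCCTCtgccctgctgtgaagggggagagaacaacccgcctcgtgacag
Spp1, chr5:104434861-104435160, plus strand: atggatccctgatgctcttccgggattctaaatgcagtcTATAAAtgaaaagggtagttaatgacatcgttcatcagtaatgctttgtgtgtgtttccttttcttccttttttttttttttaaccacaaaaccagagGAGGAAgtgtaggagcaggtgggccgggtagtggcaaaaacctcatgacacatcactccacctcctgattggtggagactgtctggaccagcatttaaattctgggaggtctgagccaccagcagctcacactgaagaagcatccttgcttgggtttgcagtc

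The LXR repeat whose first half-site is GGTTA and whose other half-site, after 5 bases of any kind, is GGTCA lay at bases 184 to 198 of the Abca1 window, on the opposite strand. Of all 32851 promoter windows, 0.0487% held it. This form was searched because the Abca1 promoter is known to carry it, so its match there was fixed in advance. The LXR form with GGTCA in both places was found in 0.0761% of windows, and neither it nor the PPAR repeat, in 0.0396%, was in the 5 windows matched. The PPAR repeat was searched as a pair of AGGTCA half-sites with 1 base between them. E-boxes were searched as CACGTG and found in 7.15% of all windows, among them those of Abca1 and Plin2. The ETS core was searched as GAGGAA, which 28.3% of all windows held, among them those of Apoe and Spp1. For the TATA box the letters TATAAA were used, present in 13.6% of windows and in those of Abca1 and Spp1. Counted from the start of transcription, that match began at -29 in Abca1 and at -211 in Spp1. For the GC box the letters were GGGCGG, present in 35.7% of windows and in those of Abca1, Lgals3 and Plin2. None of the 5 windows held the antioxidant core, TGACNNNGC, which 12.4% of all windows held. Likewise none held the AP-1 site, spelled TGANTCA and found in 7.81% of all windows. Matches in the 3 printed windows did not overlap each other, and a match is a description of letters only.

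Lgals3 and Spp1 encode secreted proteins that are abundant in foam cells. Lgals3, galectin-3, a sugar-binding protein (ENSMUSG00000050335.18; chromosome 14, 47367751 to 47386160, plus strand), stood at 3943, 4610.01 and 3779.6 in DKK1 libraries and at 2372, 2439 and 2521 in control libraries. All DKK1 libraries were above all control libraries and the mean rose 1.68-fold (log2 change 0.75, SE 0.08, limma adjusted p = 2.19e-05). Spp1, osteopontin, an adhesive protein of bone and of lipid-laden macrophages (ENSMUSG00000029304.15; chromosome 5, 104435118 to 104441050, plus strand), stood at 671, 853 and 621 in DKK1 libraries and at 73.6, 78.2 and 78.8 in control libraries. The mean rose 9.30-fold with no overlap between groups (log2 change 3.19, SE 0.13, limma adjusted p = 3.62e-08). This was the largest rise of the 10 genes as deposited, but Fabp5 led with quantile normalization (3.40 against 3.34 for Spp1 on the log2 scale) and Lpl without DKK1 library 2 (3.14 against 3.05).

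Of 5 other genes tested on the galectin list, 2 rose, 2 fell and 1 did not pass, while 35.1% of all genes tested rose and 36.1% fell. Lgals1 rose 6.82-fold to 138 ± 28.4 in DKK1, against 20.3 ± 5.18 in control. Lgals9 fell to 102 ± 9.54 in DKK1, against 1429 ± 79.8 in control, and Lgals4 to 5.76 ± 1.67 in DKK1, against 162 ± 9.78 in control. Lgals3bp, a galectin-3 ligand listed with them and one of the 2 that rose, stood at 144 ± 30.6 in DKK1 and 48.4 ± 10.5 in control.

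Receptors of osteopontin gave 4 rises and 2 falls among 7 tested, while 35.1% of all genes tested rose and 36.1% fell. The integrin subunit genes Itgb1 and Itgb3 rose 9.74-fold and 6.06-fold, with Itgb3 at 2610.5 ± 176 in DKK1 and 431 ± 30.7 in control. Cd44, the other main osteopontin receptor, fell 6.13-fold to 2681 ± 292 in DKK1, against 16446 ± 549 in control, and Itga4 fell 36.1-fold. The bone matrix genes related to Spp1, Ibsp, Dmp1, Dspp and Mepe, were too low to test.

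The list for the lipid-associated macrophage state leaves out the 10 genes themselves, of which 6 rose, 3 fell, Apoe among them, and Fabp4 did not pass. It was chosen with earlier results of these data known. On that list 11 of 17 tested genes rose and 4 fell. The other 2 did not pass the threshold, and the median log2 change was 1.29. Among all genes tested 35.1% were higher and 36.1% lower, with a median log2 change of -0.03. Ctsb, a lysosomal protease, rose 21.3-fold to 46374 ± 2345 in DKK1, against 2179 ± 51.9 in control. Lamp1, a lysosomal membrane protein, and Cd63, a late endosomal tetraspanin, rose 12.4-fold and 7.96-fold, and Psap, the precursor of lipid-degrading saposins, rose 4.87-fold. Gpnmb stood at 14292 ± 1096 in DKK1 and 3.17 ± 1.81 in control. Trem2, the lipid receptor that marks this state, was low, at 27.9 ± 4.31 in DKK1 and 5.84 ± 5.67 in control (limma adjusted p = 0.00661). Its adaptor Tyrobp fell to 2454 ± 128 in DKK1, against 13128 ± 130.0 in control. Lyz2 was 4.77-fold and Itgax 2.61-fold lower with DKK1, Igf1 was also lower, and Ctsl and Ctss did not pass.

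**Figure D3:**
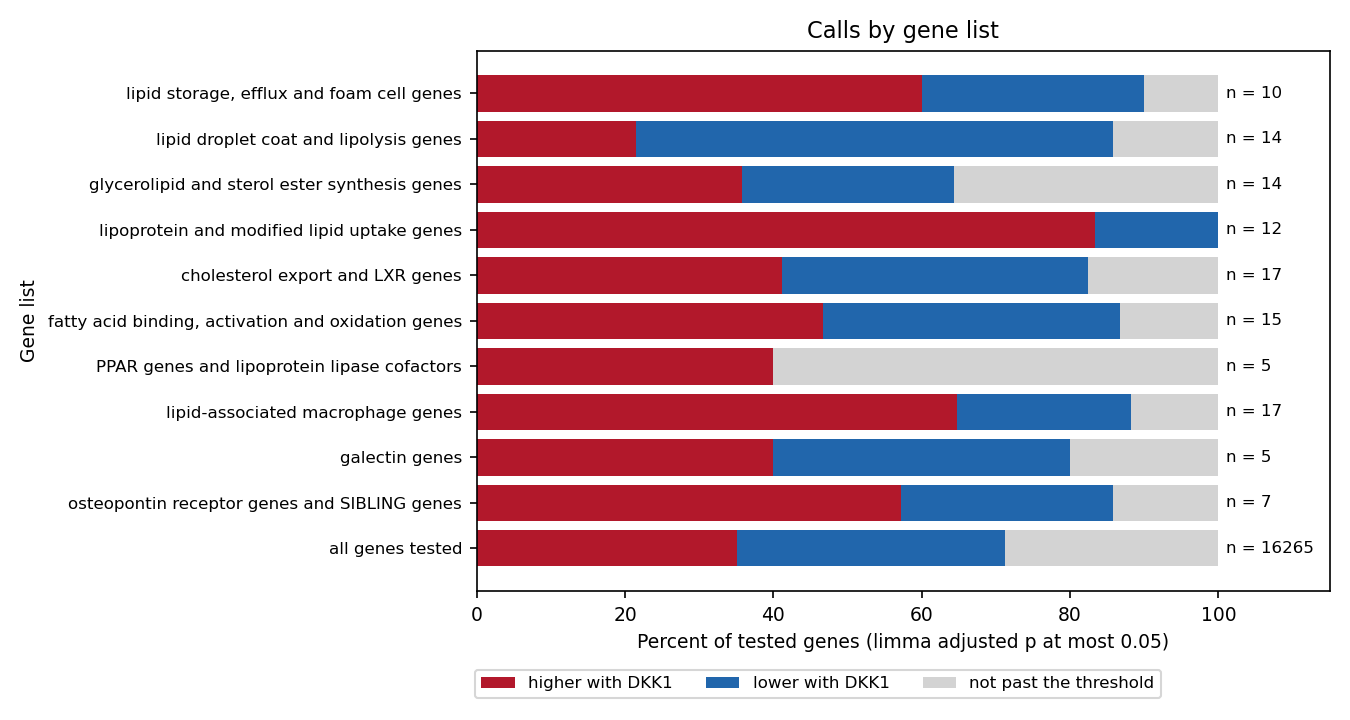
Percent of tested genes in each list called higher (red), lower (blue) or neither (grey) with DKK1 by limma at an adjusted p of at most 0.05, with the number tested at the right. Of the lists shown, uptake genes have the highest share of rises, 10 of 12, and droplet coat and lipolysis genes the highest share of falls, 9 of 14, beside 35.1% and 36.1% of all genes tested. The lists were chosen with earlier results of these data known.

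Set per length of the longest coding transcript, the order of the genes differed between the groups. In DKK1 the most abundant were Lgals3 at 2897 ± 310.05, Plin2 at 2447 ± 332 and Fabp5 at 2208 ± 237 normalized counts per kb, followed at a distance by Spp1 at 474 ± 81.2. Ranges of 1 SD overlapped between Lgals3 and Plin2 and between Plin2 and Fabp5, but not between Lgals3 and Fabp5, and the order was the same in all 3 DKK1 libraries. Apoe (52.1 ± 24.6), Dgat2 (48.0 ± 22.2), Lpl (31.2 ± 11.9) and Abca1 (25.7 ± 8.37) had overlapping ranges of 1 SD, although Apoe and Dgat2 each lay above Abca1 in all 3 DKK1 libraries. Abcg1 (14.1 ± 0.287) and Fabp4 (4.37 ± 1.54) came last. In control the order was Lgals3 (1722 ± 52.7), Plin2 (1344 ± 40.7), then Dgat2 (427 ± 5.07) and Apoe (415 ± 25.2), whose ranges overlapped. Below them stood Fabp5 (279 ± 33.7), Abcg1 (223 ± 9.93), Spp1 (51.0 ± 1.90), Abca1 (17.1 ± 2.91), Fabp4 (8.10 ± 4.45) and Lpl (4.17 ± 1.14), and the ranges of the last pair overlapped, with Fabp4 above Lpl in all 3 control libraries. Per kb, Abca1 was thus above Abcg1 in DKK1 and far below it in control. Among detected protein-coding genes, 13579 in DKK1 and 13101 in control, Fabp5 lay at percentile 98.9 in DKK1 and 85.3 in control, Spp1 at 93.3 in DKK1 and 61.1 in control, and Abcg1 at 44.3 in DKK1 and 82.8 in control.

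**Figure D4:**
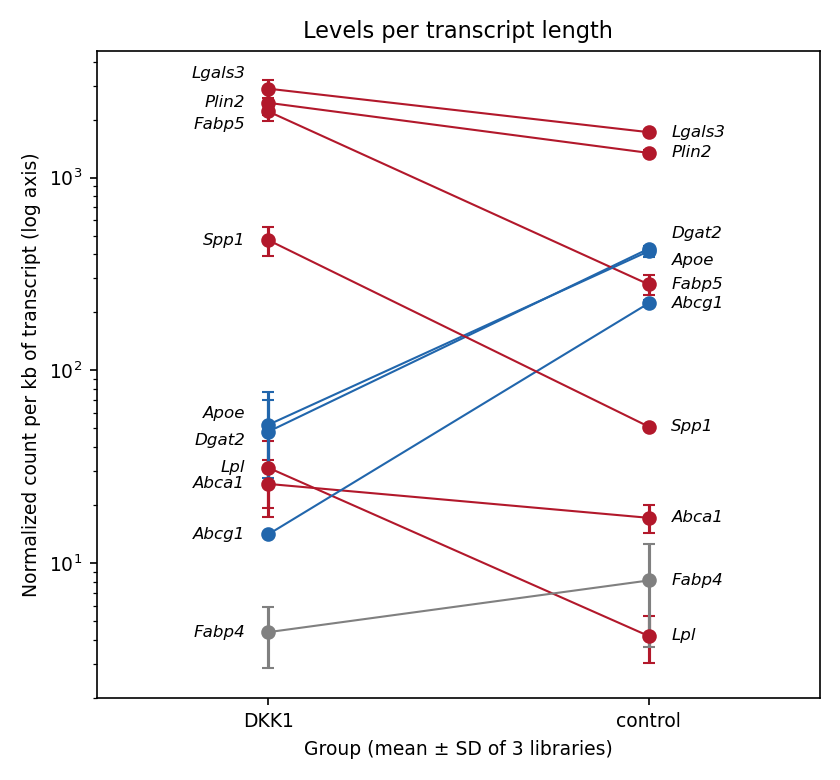
Mean normalized count per kb of transcript (log axis, ± SD of 3 libraries) of each gene in DKK1 and in control, joined by a line (red, higher with DKK1; blue, lower; grey, not past the threshold). Lgals3 and Plin2 lead in both groups, while Fabp5 and Spp1 stand higher and Dgat2, Apoe and Abcg1 lower in the DKK1 order.

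Summed over the 10 genes, normalized counts were 12285 ± 1527 in DKK1 and 8384 ± 28.2 in control, or 0.182% ± 0.0133 and 0.0862% ± 0.000519 of each library's total (SD, n = 3 each). Plin2 and Lgals3 together made up 71.1% ± 0.364 of that sum in DKK1 and 59.4% ± 0.604 in control.

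DKK1 library 2 was the highest of the DKK1 libraries for 9 of the 10 genes and the lowest for Lpl, whereas it was the highest for 37.5% of all genes tested. Against the mean of DKK1 libraries 1 and 3 it stood 2.09-fold for Dgat2, 1.85-fold for Apoe and 1.69-fold for Abca1, but 0.466-fold for Lpl. For Abcg1 the ratio was 1.03, and its median over all tested genes averaging 10 or more in DKK1 was 1.01. Fabp4 had 4 reads in each of the 3 DKK1 libraries. It counts among the 9 only because 1 read was worth 1.37 in DKK1 library 2, against 0.745 and 0.817 in the others. Without DKK1 library 2, 5 of the 10 genes were higher and 3 lower, beside 5651 and 5895 of the 16265 genes tested. The part of depth and of globin transcripts in these deviations was not tested.

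Markers of other cells that use these genes were counted beside them. Macrophage and monocyte markers summed to 7371 to 8337 in DKK1 libraries and 7028 to 7169 in control libraries, with 4 of 15 tested higher and 8 lower, or 5 higher and 4 lower with equal total reads. All genes tested gave 35.1% higher and 36.1% lower, or 43.6% and 29.2% with equal total reads. Ms4a7 was higher, at 236 ± 17.8 in DKK1 and 1.76 ± 0.569 in control, as was Cd14, at 2645 ± 605 in DKK1 and 549.7 ± 29.0 in control. Cx3cr1 was also higher, at 40.4 ± 11.6 in DKK1 and 6.35 ± 1.68 in control. Adgre1 stood at 2828 ± 310.002 in DKK1 and 1106 ± 53.5 in control and Csf1r at 2073 ± 141 in DKK1 and 2754 ± 41.4 in control, whereas C1qa, Vsig4 and Timd4 were at 0 in DKK1. Ly6c2 fell to 30.1 ± 13.9 in DKK1, against 2504 ± 68.4 in control. Ccr2 fell to 0.458 ± 0.793 in DKK1, against 52.4 ± 13.6 in control, and C1qb, C1qc and Siglec1 were also lower as deposited. Osteoclast markers, of cells that also make Spp1, summed to 1966 to 2257 in DKK1 and 2233 to 2358 in control, with 3 of 4 tested higher and 1 lower. These similar sums held different genes: the control sum was nearly all Nfatc1, and the DKK1 sum mostly Ctsk and Acp5. Ctsk stood at 921 ± 38.7 in DKK1 and 10.3 ± 4.54 in control. Acp5 stood at 816 ± 137 in DKK1 and 11.7 ± 7.09 in control. Nfatc1 went the other way, at 341 ± 1.84 in DKK1 and 2269.9 ± 69.2 in control. Tnfrsf11a was higher on few reads, 37 in DKK1 and 0 in control. The fusion genes Ocstamp and Dcstamp were at 0 in all 6 libraries. The part of such cells in these results was not tested.

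Adipocyte markers, of cells rich in Lpl, Plin2 and Fabp4, summed to 1.37 to 5.72 in DKK1 and 84.7 to 89.0 in control, the control sum being nearly all Retn, and Lep, Cfd and Cidec were at 0 in all 6 libraries. Endothelial markers summed to 7012 to 8432 in DKK1 and 275 to 319 in control; the DKK1 sum was nearly all Vwf, at 7578 ± 717, while Cdh5, Emcn and Cldn5 were at 0 in DKK1. Stromal and osteoblast markers summed to 129 to 194 in DKK1 and 1104 to 1189 in control, most of the control sum being Runx2, with Bglap at 0 throughout. B cell markers summed to 42.6 to 116 in DKK1 and 1498 to 1611 in control. T and NK cell markers summed to 1.37 to 5.96 in DKK1 and 51.2 to 89.0 in control, and erythroid markers to 300.5 to 1496 in DKK1 and 1637 to 1776 in control.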

How the data were processed

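The authors deposited 1 table of normalized counts, a non-negative signal for each gene in each library. Per the submitters' processing notes the genome build was mm10. No source used here gives the aligner, counting tool, annotation or scaling method. The table has 3 more columns that could be tied to no sample, and these were left out. All values in the 6 libraries (100%) were whole multiples of the value of 1 read, within 0.001 reads, so whole reads were recovered; they carry no molecular identifiers, so floors cover counting error only.

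Groups came from sample titles. The 16265 genes that reached a normalized count of 1 in 3 or more of the 6 libraries entered limma 3.58.1 in R 4.3.3 (trend, robust) on log2(normalized count + 1), a scale that understates the change of low genes. P-values are two-sided and Benjamini-Hochberg adjusted. Folds are ratios of mean normalized counts. Lengths and positions came from GENCODE M21, which matched 91.3% of identifiers without their version, and copies were sought with blastn 2.17.0. Alternatives included edgeR 4.0.16 and DESeq2 1.42.0 on recovered reads, which called 11400 and 10679 of the same genes. The fit was also run on simulated data in which only a small part of the genes changed. Most genes are called here, so that run cannot vouch for these calls. Libraries of a group differed beyond counting noise (chi-square), so each was kept.

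Members and lists were chosen with earlier results of these data known, so a share of calls above that of all genes tested is not evidence of an excess. Named genes are the 10, up to 4 of smallest adjusted p per list, and the most abundant or absent markers; Mgll, Pnpla2, Nr1h3, Cd36, Msr1, Trem2, Gpnmb and any other were chosen after their values were seen.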

Additional observations from a re-analysis of the deposited data

How the results depend on the processing

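Across 18 alternatives the 10 genes gave 3 to 6 higher and 3 lower calls, and no gene of the 10 changed direction. Requiring a log2 change of at least 1 left 3 higher, since Plin2, Lgals3 and Abca1 lie below it. Under the other 17 alternatives, Abca1 was the 1 gene of the 10 whose call was lost, in 7 of them, and the cause was not tested. Scaling to equal total reads moved the median of all tested genes by 0.47 and quantile normalization by 0.15 on the log2 scale, and both put Plin2 and Lgals3 above 2-fold. Under equal total reads 59.9% of all calls were higher, against 49.3%. Under equal total reads 4 PPAR and lipase cofactor genes were called, and with a log2 change of at least 1 just 1. That list also had 1 fall, against 0, with median-of-ratios scaling, by edgeR or with DKK1 library 2 left out. Sel1l turned to a log2 change of 0.35 with equal total reads and 0.19 with quantile normalization. For the other 8 lists, calls in both directions together stayed within 1.5 times. By direction, uptake genes had 1 fall, against 2, with equal total reads, a filter of 10, a log2 change of at least 1 or control library 1 left out, and fatty acid genes had 4 rises, against 7, with a log2 change of at least 1. Same-numbered libraries shared only a number (correlations of their deviations -0.01, 0.01 and 0.02). With the replicate block 6 of the 10 genes were higher and 3 lower, and 5630 and 5817 of all tested genes. Fabp4 rests on few reads, 12 in DKK1 and 21 in control.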
